A study of Mus musculus with 7 samples.

Results

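The exocrine pancreas secretes the enzymes that digest fat, starch and protein in the intestine. Genes of such enzymes, 10 in number and with the salivary and liver amylase Amy1 among them, were followed in isolated islets. They were Pnlip, Pnliprp1, Pnliprp2, Cel, Clps and Pla2g1b for fat, Amy1 and Amy2b for starch, and Cpa1 and Cpb1 for protein. They were chosen by name, as genes for which a probe set of the array was annotated to that 1 symbol. That held for 9 of the 10, among 22180 genes tested in all. No probe set of a single gene was matched to Pnlip, the main pancreatic triglyceride lipase, which is not analysed here.

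The study measured RNA of collagenase-isolated mouse islets on 7 whole-transcript arrays. The 4 arrays labelled Gata6 KO came from Gata6 flox/flox;Pdx1-Cre mice, and the 3 control arrays from Gata6 flox/flox mice without the transgene. Both groups therefore carried the floxed alleles, and both were 2 months old, with islets of 3 mice combined for each array. Pdx1-Cre acts in the pancreatic epithelium, which gives rise to acinar as well as endocrine cells, so an effect of Cre itself cannot be told apart from one of Gata6. Gata6, the targeted transcription factor, had log2 signals of 5.41, 5.35, 5.34 and 5.01 on the arrays labelled Gata6 KO, against 4.60, 4.80 and 4.83 on the control arrays. The signal was not lower where the label says knockout, and the sources used here do not place its probes relative to the deleted part, so groups are named by their labels throughout.

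As background, acinar cells make these enzymes, Amy1 of salivary gland and liver aside. They store them in zymogen granules, from which the enzymes are released into the duct. Triglyceride lipase needs the cofactor colipase, encoded by Clps, to act on fat droplets covered by bile salts. Carboxypeptidases are released as inactive precursors that trypsin cuts. Islets are endocrine tissue and do not make them as a main product, but acinar tissue surrounds islets and can stay attached after digestion. In bulk RNA, more acinar cells and more enzyme RNA per acinar cell cannot be told apart.

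On the arrays labelled Gata6 KO, 5 of the 9 measured genes rose and 0 fell: Amy2b, Cpb1, Amy1, Pla2g1b and Clps (limma's test, adjusted p under 0.05, Benjamini-Hochberg adjustment across the whole table). Over all genes 17.4% rose and 7.36% fell by the same rule, 24.7% in either direction. The other 4 genes, Pnliprp1, Pnliprp2, Cel and Cpa1, did not pass. For 7 of the 9, all but Pnliprp2 and Cel, each of the arrays labelled Gata6 KO lay above each control array, as held for 24.4% of all genes, while 9.96% of all genes lay wholly below. The median log2 difference of the 9 genes was 0.60 and that of all genes was 0.17, so differences are also given minus this shift. Amy2b and Cpb1 passed under each of the 17 alternative settings, and the other 3 calls were lost under some of them.

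**Figure D1:**
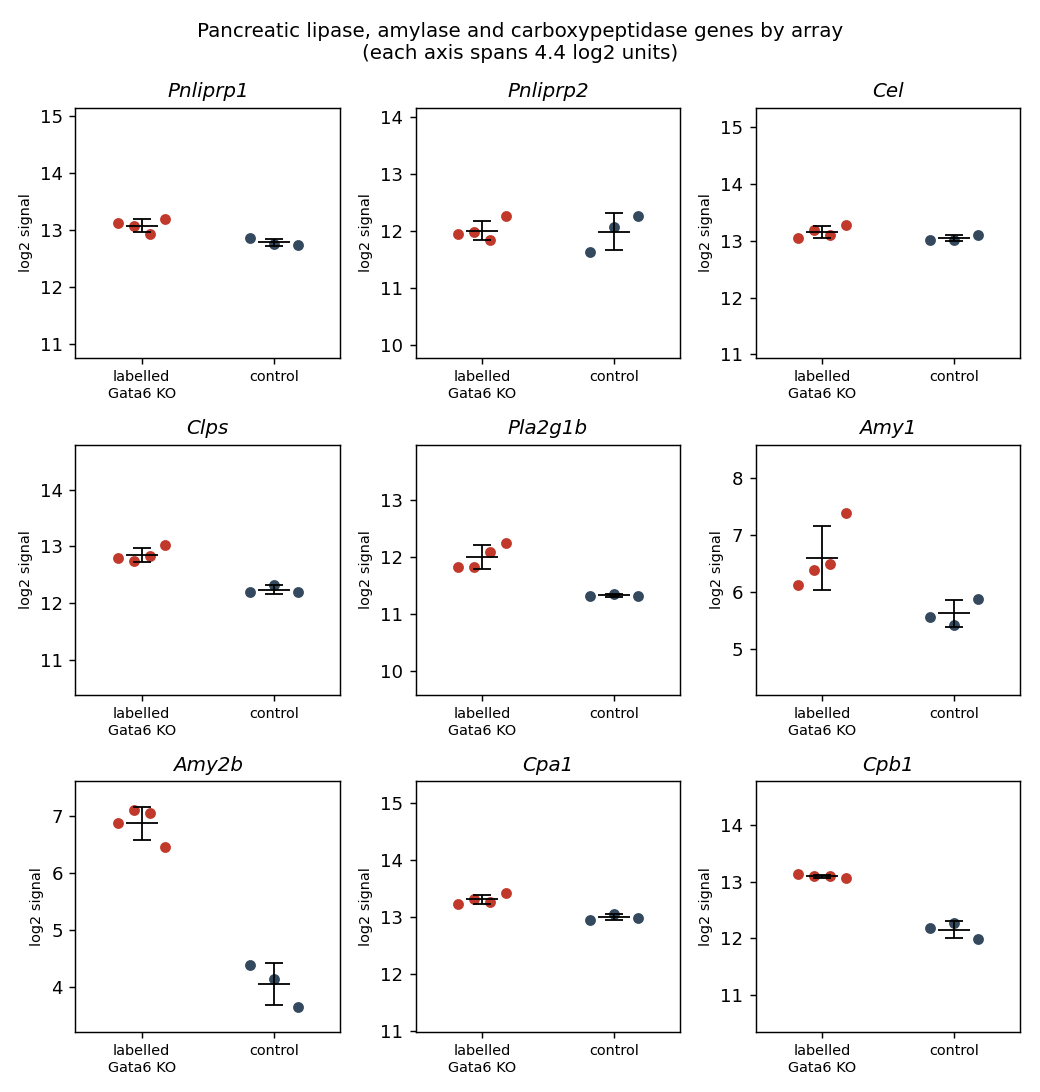
Log2 signal (vertical axes, each spanning the same number of units) of the 9 measured genes on the 4 arrays labelled Gata6 KO (left in each panel) and the 3 control arrays (right). Points are arrays, and bars are means ± SD. The groups are well apart for Amy2b (6.45 to 7.10 against 3.65 to 4.38) and for Cpb1 (13.06 to 13.13 against 11.99 to 12.28), and they overlap for Pnliprp2 and Cel.

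The sequences upstream of the transcription start are shown for 4 of the genes because 2 of them, Amy2b and Cpb1, passed under every setting tried and the other 2, Cel and Pnliprp2, had groups that overlapped. Each run is the 250 bases before the start, from RefSeq on GRCm38.p6 and 5′ to 3′ on the gene's strand. Amy2b lies on the minus strand at chr3:113156728-113156977, Cpb1 on the minus strand at chr3:20275734-20275983, Cel on the minus strand at chr2:28563404-28563653 and Pnliprp2 on the plus strand at chr19:58759473-58759722. Capitals mark GATAA, the core that GATA factors bind, and CACCTG, an E-box of the kind that the acinar factor PTF1 binds, on either strand.
Amy2b: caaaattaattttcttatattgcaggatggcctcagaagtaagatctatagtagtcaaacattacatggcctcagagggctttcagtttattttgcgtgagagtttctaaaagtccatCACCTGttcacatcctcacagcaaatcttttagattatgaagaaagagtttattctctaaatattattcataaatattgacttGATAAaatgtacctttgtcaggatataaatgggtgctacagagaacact
Cpb1: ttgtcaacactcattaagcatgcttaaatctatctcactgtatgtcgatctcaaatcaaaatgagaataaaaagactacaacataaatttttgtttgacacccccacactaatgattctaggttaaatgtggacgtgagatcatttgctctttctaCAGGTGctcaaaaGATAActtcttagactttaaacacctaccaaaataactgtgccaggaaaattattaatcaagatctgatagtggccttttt
Cel: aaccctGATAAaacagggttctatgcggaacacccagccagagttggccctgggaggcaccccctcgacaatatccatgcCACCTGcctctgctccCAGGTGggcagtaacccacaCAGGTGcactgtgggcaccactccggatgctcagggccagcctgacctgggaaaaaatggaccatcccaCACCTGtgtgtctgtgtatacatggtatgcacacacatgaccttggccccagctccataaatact
Pnliprp2: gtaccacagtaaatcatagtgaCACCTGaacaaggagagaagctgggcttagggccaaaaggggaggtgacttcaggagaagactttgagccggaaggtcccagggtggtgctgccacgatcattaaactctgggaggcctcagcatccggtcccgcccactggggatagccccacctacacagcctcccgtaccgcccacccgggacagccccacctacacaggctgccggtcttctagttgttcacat

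The 10 upstream windows that RefSeq gave for 9 of the genes, Pnlip included, Amy1 with 2 starts and Clps with none matched, were searched on both strands. GATAA was in 5 of the 10 windows, those of Pnlip, Cel, Cpb1, Amy2b and 1 start of Amy1, against 22.6% of all 32851 windows of that length. CACCTG was in 4 of the 10, those of Pnliprp2, Cel, Cpb1 and Amy2b, against 17.2% of all windows. No match of one motif overlapped a match of the other in the 4 windows shown, and both were in 3.44% of all windows. Cel, which did not pass, held both motifs, as did Amy2b and Cpb1. The search also covered CAGCTG, another E-box, which was in 0 of the 10 windows, against 13.0% of all windows. TATAAA, the last motif searched, was in 3 of the 10, against 12.4% of all windows. A match of letters is a description and does not show binding.

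The amylases split starch into short sugars. In the mouse Amy2b belongs to the pancreatic group of amylase genes, and Amy1, transcribed from separate starts in salivary gland and liver, lies in the same cluster on chromosome 3. Amy2b had log2 signals of 6.88, 7.10, 7.06 and 6.45 on the arrays labelled Gata6 KO, against 4.38, 4.13 and 3.65 on the control arrays. The lowest value on the arrays labelled Gata6 KO, from array 4, still lay well above the highest control value. The difference was 2.82 with an SE of 0.24, or 7.08-fold (adjusted p = 3.94e-06 by limma; exact two-sided permutation p = 0.0286, the smallest that the 35 splits of 7 arrays allow). Minus the shift of all genes it was 2.66, and it ranked 52 among the rises of all 22180 genes.

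Amy1 measured 6.11, 6.38, 6.49 and 7.39 on the arrays labelled Gata6 KO, against 5.56, 5.42 and 5.88 on the control arrays. The groups did not overlap, but array 4 stood 0.90 above the next array of its group. The difference was 0.98 (SE 0.27, adjusted p = 0.0186 by limma), or 0.81 minus the shift, and the exact permutation p was 0.0571. This call was lost when arrays were centred (adjusted p = 0.0652). It was also lost when control array 1 was left out (adjusted p = 0.0697), or array 2 of the controls (adjusted p = 0.0853).

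Other probe sets on the array are annotated to several amylase genes at once, so no single gene can be read from them. A total of 4 probe sets annotated to both Amy2a5 and Amy2a2 held identical values and count as 1 measurement. They gave 10.92, 11.22, 11.26 and 11.06 on the arrays labelled Gata6 KO, against 8.29, 8.29 and 7.77 on the control arrays, a difference of 3.00 (SE 0.18, adjusted p = 1.17e-04 by limma over all 41345 probe sets). A further 4 probe sets, annotated to 6 genes (Amy2b and Amy2a1 to Amy2a5), gave 13.31 to 13.40 on the arrays labelled Gata6 KO, against 12.63 to 13.01 on the control arrays. Their differences ran from 0.42 to 0.59 (adjusted p from 0.00922 to 0.0347 over all probe sets). The direction was the same on all the amylase probe sets. The smallest differences stood on those within 0.76 of the highest value of each array, where the scale may be saturated, and whether saturation lowered them was not tested. The 300-base RefSeq windows around the starts of Amy2a2, Amy2a3 and Amy2a4 were identical in all 300 positions, and that of Amy2b shared a run of 58 bases with Amy2a5. Probe positions are not given in the sources used here, so signal from one amylase RNA on probes for another cannot be told apart.

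**Figure D2:**
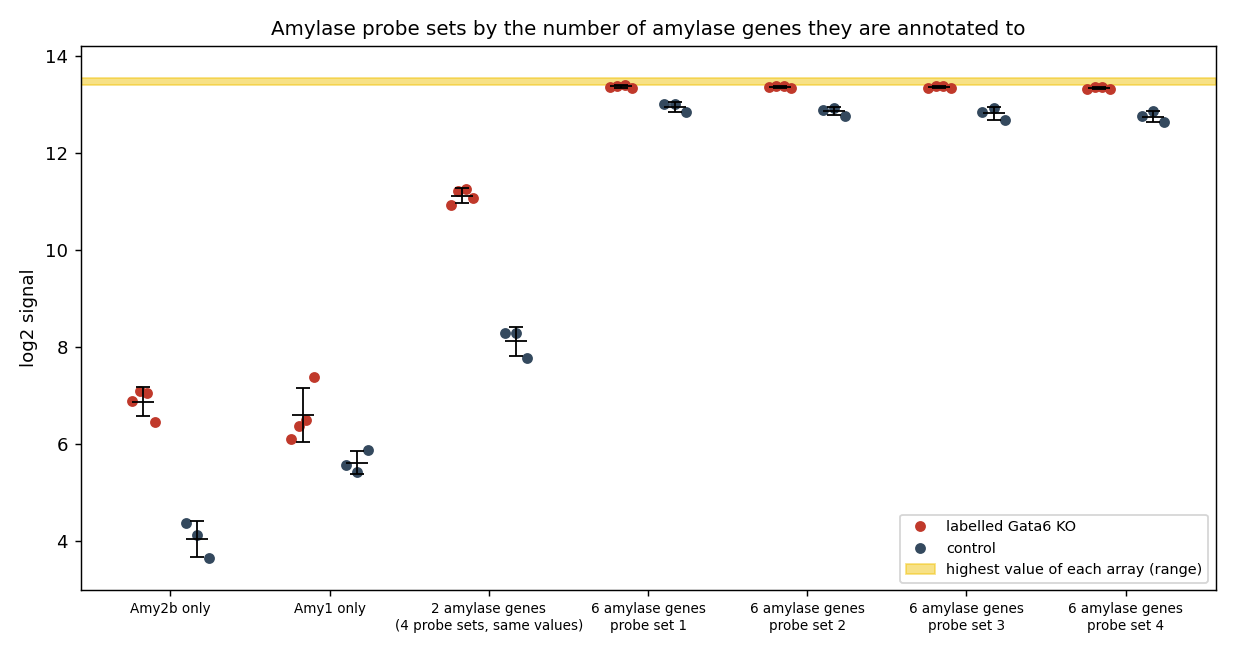
Log2 signal (vertical axis) on the amylase probe sets, grouped along the horizontal axis by the amylase genes each is annotated to; red points are the arrays labelled Gata6 KO, dark points the control arrays, bars are means ± SD. The yellow band is the range of the highest value on each array (13.386 to 13.545). Amy2b and the probe sets of 2 genes differ by 2.82 and 3.00, and those of 6 genes, at the band, by 0.42 to 0.59.

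The carboxypeptidases remove single amino acids from the end of a peptide, Cpa1 preferring aromatic and aliphatic residues and Cpb1 basic ones. Cpb1 had log2 signals of 13.13, 13.10, 13.09 and 13.06 on the arrays labelled Gata6 KO, against 12.19, 12.28 and 11.99 on the control arrays. The 4 values of the first set spread less (SD 0.03, n = 4) than those of the control arrays (SD 0.15, n = 3). The values on the arrays labelled Gata6 KO lay as close as 0.26 to the highest value of an array and may be saturated, which would affect both the difference and this SD. As measured, the difference was 0.94 with an SE of 0.15 (adjusted p = 5.26e-04 by limma; exact permutation p = 0.0286), and 0.77 minus the shift. Cpa1 measured 13.24, 13.32, 13.27 and 13.43 on the arrays labelled Gata6 KO, against 12.95, 13.06 and 12.99 on the control arrays. Its groups did not overlap, and the difference of 0.31 (95% interval 0.01 to 0.62) did not pass over all genes (adjusted p = 0.127 by limma), although the exact permutation p was 0.0286. Cpa1 came within 0.11 of the highest value on an array.

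Among the genes for fat digestion, colipase rose. Clps measured 12.79, 12.74, 12.83 and 13.02 on the arrays labelled Gata6 KO, against 12.19, 12.33 and 12.20 on the control arrays, without overlap. The difference was 0.60 (SE 0.15, adjusted p = 0.0104 by limma; exact permutation p = 0.0286), or 0.43 minus the shift. It did not pass after centring (adjusted p = 0.0882) or without control array 1 (adjusted p = 0.0528), and the difference was 0.08 after a repeated quantile normalization. Pla2g1b, the pancreatic phospholipase A2, measured 11.83, 11.82, 12.08 and 12.25 on the arrays labelled Gata6 KO, against 11.32, 11.35 and 11.31 on the control arrays. The control arrays lay within 0.04 of each other. The difference was 0.67 (SE 0.17, adjusted p = 0.00976 by limma; exact permutation p = 0.0286), or 0.50 minus the shift. It did not pass after centring (0.42, adjusted p = 0.0657), and after the repeated quantile normalization its direction turned (-0.04, adjusted p = 0.877).

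The lipase-related genes did not pass. Pnliprp1, a close relative of triglyceride lipase with little activity of its own on triglycerides, measured 13.12, 13.08, 12.93 and 13.19 on the arrays labelled Gata6 KO, against 12.86, 12.76 and 12.74 on the control arrays. The groups did not overlap, and the difference was 0.29 (95% interval -0.02 to 0.61, adjusted p = 0.162 by limma). Pnliprp2, a lipase that also splits galactolipids and phospholipids, measured 11.95, 11.99, 11.85 and 12.26 on the arrays labelled Gata6 KO, against 11.63, 12.07 and 12.27 on the control arrays. The 2 sets of values overlapped throughout, with a difference of 0.02 (95% interval -0.37 to 0.42, adjusted p = 0.943 by limma). After the repeated quantile normalization alone Pnliprp2 was lower and passed (-0.63, adjusted p = 0.0175). Cel, the bile salt-stimulated lipase that also splits cholesterol esters, measured 13.04, 13.18, 13.10 and 13.28 on the arrays labelled Gata6 KO, against 13.02, 13.02 and 13.10 on the control arrays. Its difference was 0.11 (95% interval -0.21 to 0.42, adjusted p = 0.629 by limma), below the shift of all genes. These intervals leave room for changes of either sign in Pnliprp1, Pnliprp2 and Cel.

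The signals of Pnliprp1, Cel and Cpa1 lay within 1 log2 unit of the highest value on each of the 7 arrays, which Ctrb1 gave among the named genes, and these 3 genes did not pass. Cpb1 and Clps, which passed, lay within 1 unit of it on all 4 arrays labelled Gata6 KO and on 0 of the 3 control arrays. Such values may be saturated. Between 30 and 37 probe sets lay within 1 unit of the highest value on the arrays labelled Gata6 KO, against 20 to 23 on the control arrays. Amy2b and Amy1, at least 6.16 below the top of each array, differed by 2.82 and 0.98. Amy1 and Cpb1 (0.94) had no settled order, since without array 4 labelled Gata6 KO they differed by 0.71 and 0.95 and without control array 2 by 0.88 and 1.00. Whether the scale compressed the others was not tested.

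**Figure D3:**
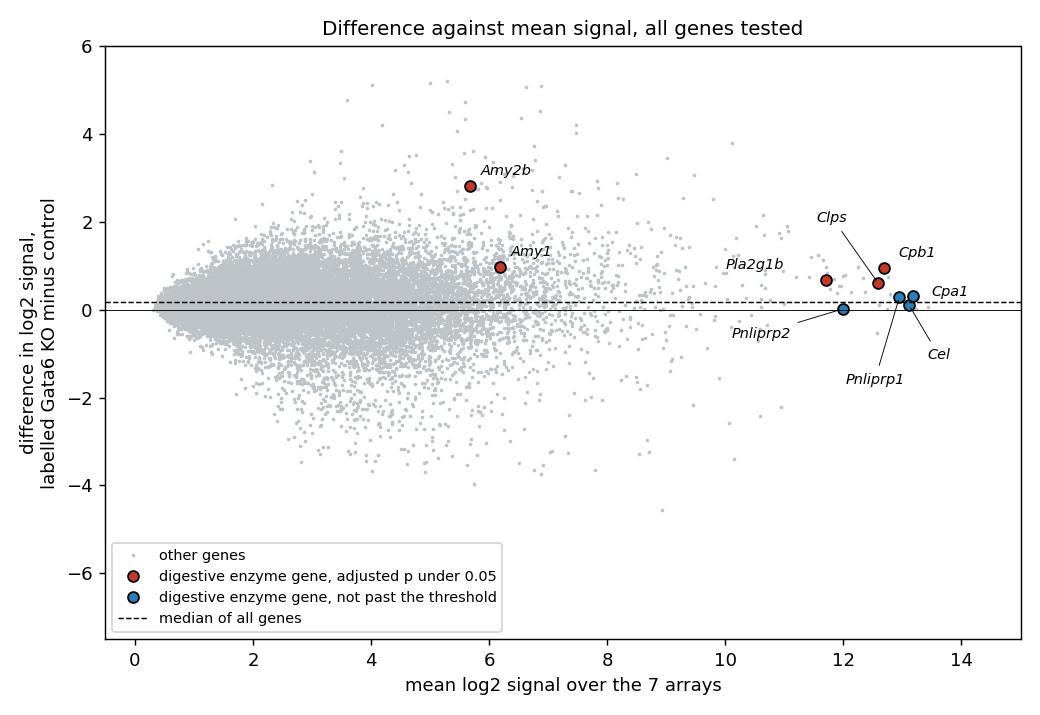
Difference in log2 signal, labelled Gata6 KO minus control (vertical axis), against the mean log2 signal over the 7 arrays (horizontal axis) for all 22180 genes (grey). Red points are the 5 digestive enzyme genes past the threshold and blue points the 4 that were not; the dashed line is the median of all genes, 0.17. Amy2b stands at 2.82 with a mean signal far from the top, and 7 of the 9 genes lie at the right end of the scale with differences of at most 0.94. Among all 36 genes with a mean signal at or over 11, the largest difference was 1.91, and Cpb1 ranked 8 by difference.

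Scaling the arrays in another way moved most of these differences. The median over all probe sets ran from 1.89 to 2.11 on the arrays labelled Gata6 KO, against 1.72 to 1.78 on the control arrays. With each array centred on this median, 2 of the 9 genes rose, Amy2b (2.58) and Cpb1 (0.69), and 0 fell, where 7.85% of all genes rose and 12.8% fell. With the quantile normalization repeated, the same 2 genes rose, by 2.56 and 0.53, and Pnliprp2 fell, where 9.10% of all genes rose and 13.0% fell. The share of higher genes among all calls was 70.2% as deposited, 38.1% after centring and 41.1% after the repeated normalization. The median difference of all genes was 0.17 as deposited, -0.08 after centring and -0.03 after the repeated normalization. Both scalings thus took away more than the shift of all genes.

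**Figure D4:**
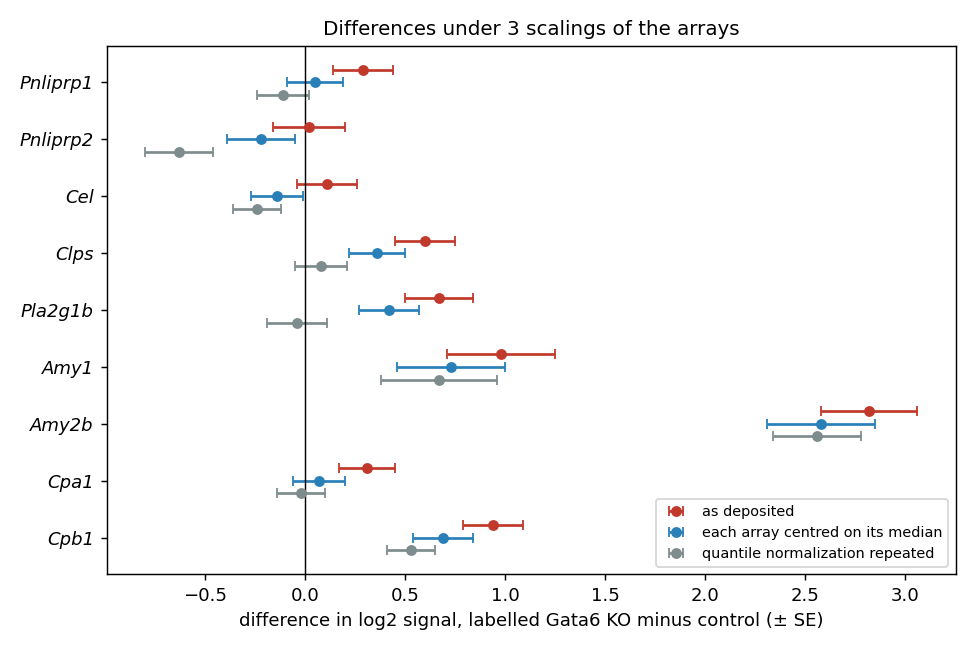
Difference in log2 signal, labelled Gata6 KO minus control, ± SE (horizontal axis) of the 9 genes (vertical axis) for the values as deposited (red), after centring each array on its median (blue) and after a repeated quantile normalization (grey). Amy2b stays between 2.56 and 2.82 and Cpb1 between 0.53 and 0.94, while Pnliprp1, Pnliprp2, Cel, Pla2g1b and Cpa1 cross 0 under at least 1 scaling.

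Within the arrays labelled Gata6 KO the genes did not vary alike. Array 4 was the highest of its group for 7 of the 9 genes, and its median over all probe sets was also the highest, 2.11. For Amy2b and Cpb1 array 4 was the lowest of the 4. On the control arrays, array 3 was the lowest for 4 genes and the highest for 3. By the root mean square difference of profiles over the 7 arrays, each minus its own mean, the nearest genes to Amy2b were Snord47 (0.149), Gm8618 (0.160) and Rpl7 (0.185). Those nearest to Cpb1 were Clptm1l (0.059), H2-Eb2 (0.071) and Mir30b (0.075). The gene nearest to Clps was Gucy2e (0.036), to Pla2g1b Hoxb1 (0.034) and to Amy1 Hcar2 (0.070). These had low mean signals on the arrays labelled Gata6 KO (2.30, 3.46 and 2.60), as had H2-Eb2 (1.91) and Mir30b (1.36). With 22180 genes compared on 7 arrays, such nearness does not show that genes vary together. None of the 3 nearest genes of the 5 genes that rose was another of the 9. The measure includes the size of the difference, so genes that rise by unlike amounts come out apart.

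Other acinar genes rose on the same arrays, but not all of them. Of 24 measured acinar markers outside the 9 genes 14 rose and 0 fell, where 17.4% of all genes rose and 7.36% fell. Their median difference was 0.76, against 0.17 for all genes. After centring 10 rose and 1 fell, where 7.85% of all genes rose and 12.8% fell. After the repeated quantile normalization 7 rose and 1 fell, where 9.10% of all genes rose and 13.0% fell. In the values as deposited, the 4 markers with the smallest p were Spink1 (1.90), Prss2 (1.74), Try5 (1.87) and Serpini2 (1.62). Their adjusted p ran from 1.08e-05 to 2.8e-04 by limma, and Try5 had low mean signals (4.92 and 3.05). Sycn differed by -0.53 without passing (adjusted p = 0.0898 by limma). Ctrb1 and Cela1, near the top of the scale, differed by 0.05 and 0.02 without passing. Without array 4 labelled Gata6 KO 1 fell. The mean of that list was 9.65 to 9.96 on the arrays labelled Gata6 KO, against 8.99 to 9.11 on the control arrays. Of 8 measured acinar regulators 5 rose and 0 fell, with a median of 0.67, while 2 rose under either of the other scalings and 3 without control array 1. The lists share 4 measured genes, and 3 of the 5 regulators that rose, Ptf1a, Rbpjl and Nr5a2, are also among the 14, so the counts are not separate. Nr5a2, a nuclear receptor that acts with PTF1 on enzyme genes, measured 7.42, 7.20, 7.28 and 7.09 on the arrays labelled Gata6 KO, against 5.75, 6.38 and 6.11 on the control arrays (difference 1.17, SE 0.20, adjusted p = 0.00102 by limma). Ptf1a, the DNA-binding subunit of the PTF1 complex, differed by 1.12 (SE 0.23, adjusted p = 0.00316), its partner Rbpjl by 0.95 (SE 0.22, adjusted p = 0.00641) and Foxa3 by 0.76 (SE 0.21, adjusted p = 0.0159). Xbp1, a transcription factor of the secretory stress response, differed by 0.06 (adjusted p = 0.855).

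Markers of the other cell types of the preparation moved as well. Of 22 measured endocrine markers 19 fell and 0 rose, and their mean was 4.81 to 6.49 on the arrays labelled Gata6 KO, against 7.91 to 8.38 on the control arrays. Of 12 ductal markers 5 rose and 2 fell (means 4.37 to 4.80, against 4.13 to 4.32). Of 14 mesenchymal markers 9 rose and 0 fell (3.87 to 5.41, against 3.17 to 3.97), and of 12 macrophage and lymphoid markers 5 rose and 0 fell (2.71 to 3.87, against 2.05 to 2.11). Of 12 endothelial markers 4 fell and 0 rose (3.67 to 4.22, against 4.26 to 4.71). Of 7 adipocyte markers 2 rose and 0 fell (2.10 to 2.33, against 1.67 to 1.74). Beside all these counts, 17.4% of all genes rose and 7.36% fell. After centring the counts were 20 endocrine, 6 endothelial and 2 ductal genes that fell and 6 mesenchymal, 5 macrophage and lymphoid, 3 ductal and 1 adipocyte genes that rose. Beside these centred counts, 7.85% of all genes rose and 12.8% fell. Without control array 1, and likewise without control array 2, 3 ductal genes rose, 1 ductal gene fell and 1 adipocyte gene rose. Also 1 ductal gene fell without array 2 or array 3 labelled Gata6 KO, 1 adipocyte gene rose without array 1, 2 or 3 labelled Gata6 KO, and 1 endothelial gene rose without array 4. The part of these cell types in the enzyme genes' differences was not tested.

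Genes of the same enzyme families that are not made by acinar cells as digestive enzymes gave other counts. Of 21 measured other lipases and esterases 1 rose and 0 fell, with a median difference of 0.11, while 0 rose and 2 fell after centring and without array 4 labelled Gata6 KO, and 0 rose without any 1 of the control arrays. The gene that rose was the carboxylesterase Ces1d (0.74, SE 0.24, adjusted p = 0.0356). The 2 with the highest mean, Lpl (lipoprotein lipase) and Lmf1, which helps lipases fold, differed by 0.00 and -0.28 without passing. Of all genes 17.4% rose and 7.36% fell, and after centring 7.85% rose and 12.8% fell. The mean of this lipase list was low, 2.74 to 2.99 on the arrays labelled Gata6 KO and 2.75 to 2.81 on the control arrays. Ces1d averaged 1.94 and 1.20. Of the digestive enzyme genes, 7 had means at or over 11 and 2 lay below 8. With such unlike levels, the counts of the lipase list and of the digestive enzyme genes are not directly comparable. Of 11 other genes of secreted phospholipases A2 and their receptor 1 fell and 0 rose, while 1 rose without control array 1 and 2 without array 1 labelled Gata6 KO. This was Pla2g2f, with 2.36, 3.37, 2.31 and 3.61 on the arrays labelled Gata6 KO, against 5.68, 5.04 and 4.80 on the control arrays (difference -2.26, SE 0.33, adjusted p = 2.92e-04 by limma). Pla2g1b and Pla2g2f passed in opposite directions in the values as deposited. Pla2g2d differed by -0.44 without passing (adjusted p = 0.263).

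Of 3 measured glucosidases 2 fell and 0 rose, but 1 fell without control array 1, control array 2 or array 3 labelled Gata6 KO. Gaa, the lysosomal alpha-glucosidase, differed by -1.47 (SE 0.21, adjusted p = 2.39e-04) and Ganab, the catalytic subunit of the glucosidase that trims glycans in the endoplasmic reticulum, by -0.74 (SE 0.23, adjusted p = 0.0322). Of 15 other carboxypeptidase genes 4 rose and 2 fell, with a median of 0.21, where 17.4% of all genes rose and 7.36% fell. After centring 1 rose and 2 fell, where 7.85% of all genes rose and 12.8% fell. With so few genes, these counts are not read as a result about carboxypeptidases. The number that rose was 1 without control array 1 or 2, and 2 without array 2 or 3 labelled Gata6 KO. Cpe, which trims prohormones in endocrine granules, measured 7.66, 7.73, 5.55 and 7.21 on the arrays labelled Gata6 KO, against 9.38, 9.11 and 8.81 on the control arrays (difference -2.06, SE 0.40, adjusted p = 0.00238 by limma). Cpq differed by -1.67 (SE 0.27, adjusted p = 5.74e-04). Those that rose were Cpa3, Cpa4, Cpxm1 and Cpz, by 0.67 to 1.19, and their mean signals were low, from 2.16 to 3.07 on the arrays labelled Gata6 KO. Cpn1, a subunit of the plasma enzyme carboxypeptidase N, differed by -0.29 without passing (adjusted p = 0.431).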

How the data were processed

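Expression was measured on 7 arrays of mouse islets. The log2 values were made by the authors with RMA, per the submitters' processing notes, which also name Transcriptome Analysis Console; versions and genome build are not given in the sources used here. Base 2 is taken from RMA's usual output. RMA usually includes quantile normalization, yet array medians differed here. Saturation could not be checked without scanner files.

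Of 41345 probe sets 23521 had 1 gene symbol in the platform annotation, 1814 several and 16010 none; the probe set with the highest mean stood for a gene. Each of the 9 measured genes had 1 such probe set. All 22180 genes entered one limma fit (limma 3.58.1, R 4.3.3; lmFit, then eBayes with trend) with group as the only term, Benjamini-Hochberg adjustment over all genes, threshold 0.05. Tests were two-sided and SEs moderated. Arrays are separate pools of mice, whose spread the p-values measure, and their number limits precision. Exact permutation tests used the difference of group means. On simulated data for this comparison (22180 genes, 200 changed) 49% of log2 changes of 1 and 91% of changes of 2 were recovered. In the data a far larger share, 24.7% of genes, passed, so these rates need not hold for them.

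The 10 genes and the 13 lists (193 genes, 164 measured) were chosen with earlier results of these data known. Text names all 9 measured genes. The 5 lists of regulators and enzyme families each give up to 4 genes past the threshold by smallest p, plus 2 of highest mean. Cpa4, Cpxm1, Sycn, Cela1, Spink1, Prss2, Try5 and Serpini2 were named outside this rule after their values were seen. Sequences are RefSeq's on GRCm38.p6; the 9 measured genes matched RefSeq's gene table by identifier, while upstream windows were matched for 8 of them and for Pnlip. There were 17 alternatives: centring, repeated quantile normalization, a filter that dropped the dimmest 40% of genes, averaged probe sets, all probe sets, eBayes without trend or robust, array weights, replicate number or Xist level as a block, and each array left out. Deviations of same-numbered arrays from their group means correlated weakly over genes (0.0976, 0.00432 and 0.115 for numbers 1, 2 and 3). Arrays of different numbers gave -0.141 to 0.0729. Xist was low on array 3 of both groups (1.34 control, 2.15 labelled Gata6 KO), against 5.02 to 5.60 on the others. Whether the numbers pair the arrays is not settled by these values, and the main fit did not take them as pairs.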

Additional observations from a re-analysis of the deposited data

Results flagged for a closer look

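The Gata6 signal on array 4 labelled Gata6 KO, 5.01, stood apart from the other 3 arrays of that group, at 5.34 to 5.41. Its gap to the nearest array was 0.831 of the group's range, just over the critical value of Dixon's test for 4 values. The 4 arrays labelled Gata6 KO were examined in this way for 40 genes and list means, and this was the 1 value that stood out. Chance alone marks about 1 in 20 such groups. None of the 9 digestive enzyme genes had such a value, Amy1 on array 4 included.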

How the results depend on the processing

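Over the 17 alternatives Amy2b kept its call and direction (2.56 to 2.99), as did Cpb1 (0.53 to 1.00). The number of the 9 genes that rose was 2 after centring each array and after a repeated quantile normalization, which also gave 1 gene that fell, and 3 to 5 when single arrays were left out, with 3 without control array 1; 0 fell in those fits. Of all genes 1742 rose and 2831 fell after centring, 2018 rose and 2892 fell after the repeated normalization, and 2246 to 3812 rose and 1019 to 1801 fell with 1 array left out; the fewest came without control array 1, and 2395 rose without control array 2. Directions turned after the repeated normalization for Pnliprp1 (-0.11), Pnliprp2 (-0.63), Cel (-0.24), Pla2g1b (-0.04) and Cpa1 (-0.02), and after centring for Pnliprp2 (-0.22) and Cel (-0.14); the cause was not tested. With single arrays left out Pnliprp2 ran from -0.16 to 0.16, below 0 without control array 1 and without array 4 labelled Gata6 KO (-0.06). With the replicate number as a block, which leaves array 4 without a partner, 5 of the 9 genes rose. The difference of Pnliprp2 turned to -0.06, still without passing. That block changed no call of the 9, and neither did low or high Xist as a block. Amy1 also missed the threshold when all probe sets were tested (adjusted p = 0.0574). Gata6 passed, towards higher values, in 5 of 17 alternatives (adjusted p from 0.0312 to 0.390 over all). Signal over background could not be assessed, and the values near the top limit what the most abundant genes can show.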

Other observations

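Carboxypeptidase A3 is a mast cell protease, and its gene Cpa3 shares a family with Cpa1. Cpa3 measured 2.12, 1.58, 1.88 and 3.08 on the arrays labelled Gata6 KO, against 1.20, 0.83 and 0.88 on the control arrays (difference 1.19, SE 0.29, adjusted p = 0.00907 by limma). Of 8 measured mast cell markers, Cpa3 among them, 2 rose and 0 fell, where 17.4% of all genes rose. That count was 1 after centring, after the repeated normalization, without any 1 of the control arrays and without array 4 labelled Gata6 KO. Of all genes 7.85% rose after centring and 9.1% after the repeated normalization. The list mean was 1.61 to 1.99 on the arrays labelled Gata6 KO, against 1.41 to 1.45 on the control arrays. All these signals were low.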
